A study of Mus musculus with 12 samples.

Results

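Ribosome biogenesis and nucleolar genes were followed through a knockdown of the mRNA decapping machinery in mouse eggs. The set holds the 51 genes whose platform symbol begins with Utp, Nop, Nol or Rrp and a digit, or is Fcf1, Ncl, Npm1, Fbl, Dkc1, Bop1, Pes1, Pum3, Nhp2, Gar1, Gnl3, Nip7, Ebna1bp2 or Wdr12, of 18193 genes named by the array. Each gene was read through its brightest probe set, the one with the highest mean log2 intensity over the 12 arrays. Membership rests on the symbol alone, although the list was chosen with earlier results of these data known.

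The study used full-grown germinal vesicle oocytes of CF1 mice. They were injected with a mixture of siRNA pools against Dcp1a and Dcp2 (Dcp1a+Dcp2 siRNA, called the double knockdown here), with the Dcp1a pool, with the Dcp2 pool or with a control siRNA. Oocytes of all 4 groups spent 20 h in milrinone, which blocks meiotic resumption, and then matured to metaphase II (MII) for 18 h without it. Each group had 3 arrays, and each array measured the amplified RNA of a pool of 30 eggs from 1 of 3 independent biological replicates. An siRNA lowers an mRNA without deleting its gene, and protein was not measured. Intensities are relative to the other transcripts of the same array, so a lower reading of 1 mRNA and a gain in all other mRNA of the egg cannot be told apart, nor can a change in every egg of a pool and a larger change in some.

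Ribosomes are assembled in the nucleolus from a long precursor rRNA. Box C/D and box H/ACA ribonucleoproteins guide methylation and pseudouridylation of that precursor, the small subunit processome cleaves it and folds the small subunit, and a separate set of factors matures the large subunit. Full-grown mouse oocytes transcribe very little, and maturation to MII disassembles the nucleus and its nucleolus, so the egg's mRNAs for these factors are stored maternal transcripts. Dcp2 removes the 5′ cap of an mRNA and Dcp1a is its cofactor, and decapping opens a transcript to decay.

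The brightest probe sets of the targeted mRNAs were low in the groups named for them. Dcp1a averaged log2 9.52 ± 0.66 in the double knockdown, 9.90 ± 0.61 with Dcp1a siRNA, 12.94 ± 0.35 with Dcp2 siRNA and 12.99 ± 0.60 with control siRNA (SD, n = 3 each). Dcp2 averaged 2.30 ± 0.02, 5.49 ± 0.42, 2.31 ± 0.02 and 5.43 ± 0.80 in the same order of groups. A dimmer Dcp1a probe set, 1431933_a_at, did not follow. It averaged 7.44 in the double knockdown, 7.72 with Dcp1a siRNA, 9.01 with Dcp2 siRNA and 8.18 with control siRNA, whose arrays read 11.72, 8.12 and 4.7, and its changes of -0.74 and -0.46 in the double and Dcp1a knockdowns against control did not pass (limma adjusted p = 0.785 and 0.968). All 9 oocyte markers on the array lay above 32 units on every array, whereas 2 of 12 cumulus and granulosa cell markers, Kitl and Nr5a2, exceeded 32 units on at least 1 array. The log2 of the summed intensity of the cumulus and granulosa list was 10.33 to 10.60 in the double knockdown, 11.24 to 11.29 with Dcp1a siRNA, 10.76 to 11.38 with Dcp2 siRNA and 10.65 to 11.11 with control siRNA. Its part in the results was not tested. The 3′ to 5′ log2 ratio of Gapdh, a sign of RNA integrity and labelling, was 7.26 to 7.39, 7.32 to 7.78, 7.41 to 7.96 and 6.60 to 7.46 in the same order. That of b-Actin was 7.47 to 7.61, 7.06 to 7.36, 6.47 to 7.84 and 6.28 to 7.9. The double knockdown thus lay above Dcp1a siRNA for b-Actin and overlapped it for Gapdh, and the part of these ratios in the results was not tested. All 3 control arrays and Dcp2 siRNA replicate 2 correlated best with an array of another group. Control replicate 1 correlated at 0.988 with a Dcp1a siRNA array and at 0.938 to 0.954 with its own group, and Dcp2 siRNA replicate 2 at 0.985 with a Dcp1a siRNA array and at 0.938 to 0.963 with its own. Results that depend on these arrays are given with and without them.

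A probe set was tested if its log2 intensity exceeded 5, or 32 units, on at least 3 of the 12 arrays. Of the 51 genes, 37 were tested through their brightest probe set. The 14 others read too low, with means over the 12 arrays between log2 2.29 for Nol3 and Rrp9 and 4.66 for Rrp7a. They were Bop1 and Wdr12, partners of Pes1 in large subunit maturation, and Nol3, Nol6, Nol11, Nop2, Nop9, Nop16, Nop53, Rrp7a, Rrp8, Rrp9, Rrp12 and Utp23. Of the PeBoW complex, Pes1 was thus the member that was tested. Probe sets differ in efficiency, so these readings order the signals and not the amounts of mRNA.

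The brightest readings of the set came from 3 genes. Npm1, which encodes the nucleolar chaperone nucleophosmin, read 13.43, 13.28 and 12.01 in the double knockdown, 13.42, 13.63 and 13.49 with Dcp1a siRNA, 13.59, 13.26 and 13.12 with Dcp2 siRNA, and 13.41, 13.97 and 13.79 with control siRNA. Dkc1, which encodes the pseudouridine synthase dyskerin of box H/ACA particles, read 12.57, 12.09 and 12.94, then 13.03, 13.13 and 13.26, then 12.29, 12.80 and 11.85, and 12.82, 12.77 and 12.81 in the same order of groups. Rrp1b, a nucleolar protein of the large subunit pathway, read 11.72, 11.89 and 11.08, then 11.45, 11.45 and 11.41, then 11.70, 11.52 and 12.36, and 11.82, 11.59 and 10.51. The double knockdown overlapped the control in all 3 genes, and none passed the test in any of the 6 comparisons.

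The comparison of the double knockdown with control siRNA asks what the loss of both decapping factors does to these mRNAs. Fcf1, Utp25, Utp11, Nhp2 and Nol12 rose, and Ncl fell. These 5 and 1 genes of 37 stand beside 6.78% of all 6996 tested genes called higher and 1.64% called lower by limma at an adjusted p under 0.05. The other 31 did not pass. The median log2 change was -0.07 over the 37 genes and 0.00 over all tested genes, and it was again -0.07 for the 37 with values under 32 units set to 32. Of the 5 genes that rose, 3 (Nhp2, Utp11 and Utp25) exceeded 32 units on the 3 double-knockdown arrays alone. They entered the test through that group and therefore had to differ, so the count is no support for a rise of the set. Without control replicate 1 and Dcp2 siRNA replicate 2, 9 of the 37 genes were called, with Rrp36, Utp15 and Utp18 added, where 19.0% of all tested genes were called higher and 9.43% lower.

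**Figure D1:**
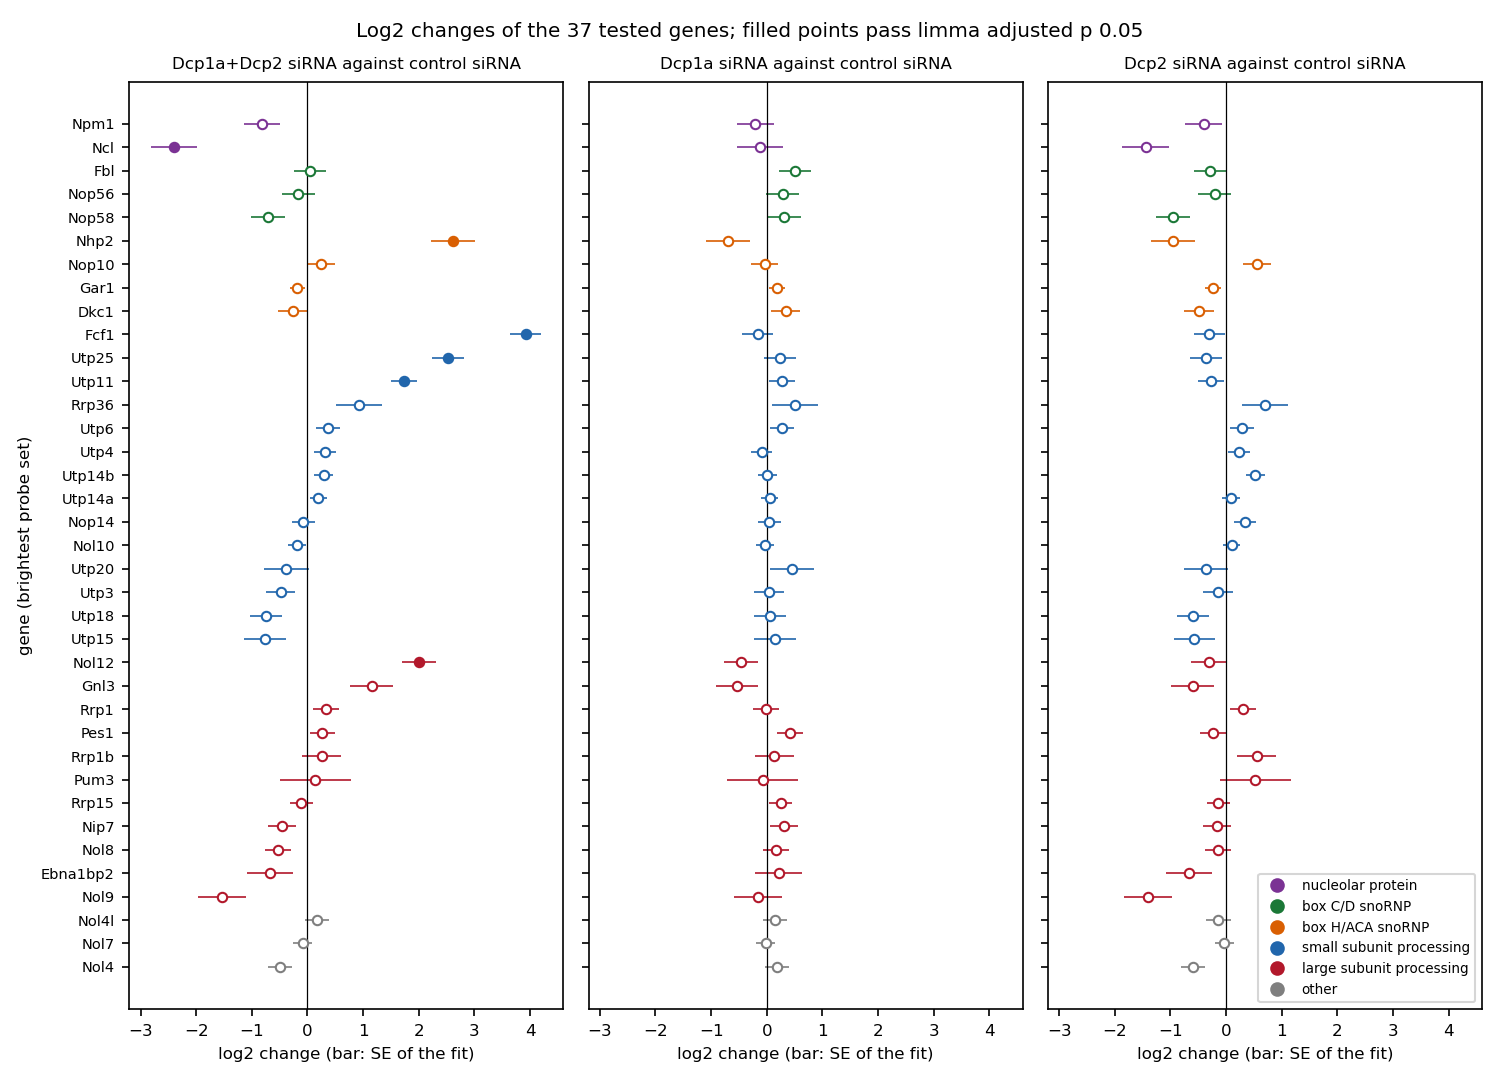
Log2 change of each of the 37 tested genes (horizontal axis, with bars of 1 standard error of the limma fit) in the double knockdown, the Dcp1a knockdown and the Dcp2 knockdown against control siRNA, ordered by role. Filled points passed the adjusted p of 0.05: 6 in the double knockdown and 0 in each single knockdown.

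Small subunit processing factors made up 21 of the 51 genes, of which 14 were tested, 3 rose and 0 fell, with a median log2 change of 0.25. Fcf1, a PIN-domain protein whose yeast counterpart cleaves the precursor of the small subunit rRNA, read 9.10, 9.73 and 9.0 in the double knockdown, 5.24, 5.17 and 5.17 with Dcp1a siRNA, 5.38, 4.62 and 5.17 with Dcp2 siRNA, and 5.17, 5.04 and 5.85 with control siRNA. The double-knockdown arrays lay far above the other 9, which sat near 32 units. Against control siRNA, Fcf1 rose by 3.92 ± 0.28 on the log2 scale (SE of the fit), or 15.2-fold, with a limma adjusted p of 1.86e-05. This was the largest change of any of the 37 genes.

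Utp25, a component of the small subunit processome, read 6.40, 6.67 and 6.20 in the double knockdown, 3.95, 4.15 and 4.29 with Dcp1a siRNA, 3.43, 3.49 and 3.69 with Dcp2 siRNA, and 4.65, 3.59 and 3.43 with control siRNA. Utp11, another processome component, read 5.70, 5.73 and 6.13, then 4.25, 4.49 and 4.46, then 3.59, 4.24 and 3.72, and 3.73, 4.24 and 4.39 in the same order of groups. In both genes every double-knockdown array was above 32 units and every other array was below it. Since GCRMA pulls dim signals to a common floor, their folds are given as bounds against 32 units. With both siRNAs Utp25 was at least 2.68-fold higher than with control siRNA (limma adjusted p = 0.000482) and Utp11 at least 1.8-fold higher (limma adjusted p = 0.00137).

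The 11 other tested genes of the small subunit group did not pass against control. They were Utp3, Utp4, Utp6, Utp14a, Utp14b, Utp15, Utp18, Utp20, Nop14, Nol10 and Rrp36. Their log2 changes ran from -0.76 for Utp15 to 0.92 for Rrp36. Rrp36 read 7.71, 8.18 and 7.50 in the double knockdown and 7.85, 6.06 and 6.71 with control siRNA, so its groups overlapped.

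Of the box H/ACA core proteins, 1 of 4 rose. Nhp2, a core protein of these particles and of telomerase, read 6.30, 6.42 and 6.53 in the double knockdown, 3.0, 3.15 and 3.19 with Dcp1a siRNA, 3.0, 2.85 and 2.68 with Dcp2 siRNA, and 2.89, 3.59 and 4.94 with control siRNA. The groups did not overlap, and control replicate 3 was the highest of the other 9 arrays. With both siRNAs Nhp2 was at least 2.67-fold higher than with control siRNA (limma adjusted p = 0.00255). The remaining members of the same particle gave log2 changes of -0.26 for Dkc1, -0.18 for Gar1 and 0.24 for Nop10, with limma adjusted p of 0.514, 0.406 and 0.531. The 3 box C/D core proteins gave 0.04 for the methyltransferase Fbl, -0.17 for Nop56 and -0.71 for Nop58, and 0 of 3 passed.

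Of the 16 large subunit factors 11 were tested and 1 rose. Nol12, a nucleolar RNA-binding protein, read 7.55, 7.68 and 7.0 in the double knockdown, 4.87, 5.06 and 4.9 with Dcp1a siRNA, 5.06, 4.83 and 5.41 with Dcp2 siRNA, and 5.21, 4.89 and 6.13 with control siRNA. The double knockdown lay above all other arrays, and control replicate 3 was again the highest of those. Nol12 rose by 2.0 ± 0.31 on the log2 scale, or 4.0-fold, against control siRNA (limma adjusted p = 0.00294).

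Gnl3, the nucleolar GTP-binding protein nucleostemin, read 8.26, 8.59 and 8.61 in the double knockdown, 6.79, 6.86 and 6.76 with Dcp1a siRNA, 7.14, 6.85 and 6.21 with Dcp2 siRNA, and 6.62, 7.06 and 8.33 with control siRNA. Control replicate 3 fell inside the range of the double knockdown, while the 6 arrays of the single knockdowns lay below it. The change against control, 1.15 ± 0.38, did not pass (limma adjusted p = 0.0873), and it passed when control replicate 3 was left out. Nol9, a polynucleotide kinase of large subunit rRNA processing, read 7.43, 5.63 and 7.07 in the double knockdown, 8.47, 7.93 and 7.84 with Dcp1a siRNA, 6.41, 6.98 and 7.14 with Dcp2 siRNA, and 8.77, 8.01 and 7.95 with control siRNA. Its change of -1.53 ± 0.43 against control did not pass with a limma adjusted p of 0.0507, and it passed after each array was centred on its median or after quantile normalization.

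The other 8 tested large subunit genes, Pes1, Rrp1, Rrp1b, Rrp15, Pum3, Nip7, Nol8 and Ebna1bp2, gave log2 changes against control from -0.67 for Ebna1bp2 to 0.33 for Rrp1, and none passed. Of 5 genes with a nucleolar name that fall in none of these groups, 3 were tested, and Nol4, Nol7 and Nol4l changed by -0.50, -0.09 and 0.17 without passing.

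Ncl was the 1 gene that fell. It encodes nucleolin, an abundant nucleolar RNA-binding protein of rRNA transcription and early processing. Its brightest probe set read 9.58, 8.71 and 9.62 in the double knockdown, 11.75, 11.79 and 11.19 with Dcp1a siRNA, 10.45, 10.91 and 9.39 with Dcp2 siRNA, and 11.38, 12.32 and 11.39 with control siRNA. The double knockdown lay below all Dcp1a siRNA and control arrays and overlapped the Dcp2 siRNA arrays. Ncl fell by 2.40 ± 0.42 on the log2 scale, or 5.26-fold, against control siRNA (limma adjusted p = 0.00535), and the call was lost when dim probe sets were not filtered out (limma adjusted p = 0.0536). Npm1, the other abundant nucleolar protein, gave -0.82 with a limma adjusted p of 0.146.

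**Figure D2:**
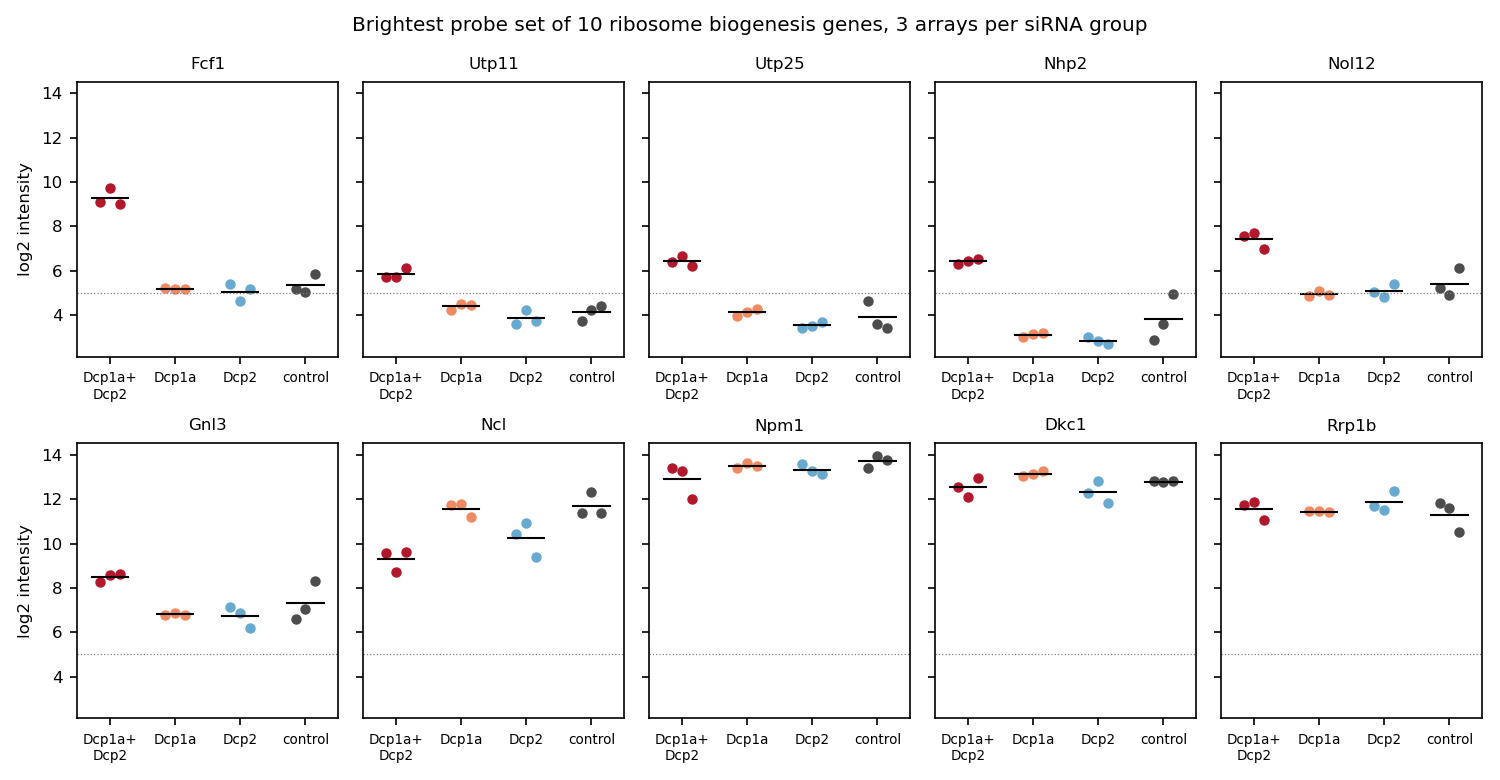
Log2 intensity (vertical axis) of the brightest probe set of the 7 genes called in any comparison and of the 3 brightest genes, 1 point per array and a bar at the group mean, with the dotted line at 32 units. The 3 double-knockdown arrays of Fcf1 lie between 9.0 and 9.73, above the other 9 arrays, and those of Ncl lie between 8.71 and 9.62, below all control arrays.

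Other probe sets of the same genes did not always move with the brightest one. Ncl had 3 tested probe sets. The probe set 1456528_x_at, whose suffix marks probes that can bind other transcripts, read 8.60, 8.39 and 8.33 in the double knockdown, 7.44, 7.59 and 7.59 with Dcp1a siRNA, 7.78, 7.71 and 7.81 with Dcp2 siRNA, and 7.65, 7.76 and 7.76 with control siRNA. It rose by 0.72 ± 0.15 against control (limma adjusted p = 0.013), opposite to the brightest Ncl probe set. The call was lost in 3 of 21 alternative settings. These were only the 6 arrays compared (limma adjusted p = 0.104), no double-knockdown replicate 1 (0.0643) and median centring (0.0518). The third, 1415771_at, read 8.92, 8.57 and 9.66 in the double knockdown and 8.52, 7.80 and 8.50 with control siRNA, a change of 0.78 that did not pass (limma adjusted p = 0.255). The fall of Ncl therefore rests on 1 of 3 probe sets.

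Dkc1, Pum3 and Rrp1b each had a dimmer probe set that rose beside a brightest one that did not pass. The Dkc1 probe set 1441788_s_at read 9.51, 9.40 and 9.74 in the double knockdown, 7.39, 7.44 and 6.85 with Dcp1a siRNA, 7.22, 7.56 and 7.05 with Dcp2 siRNA, and 7.27, 8.53 and 8.75 with control siRNA. It rose by 1.37 ± 0.35 against control (limma adjusted p = 0.032), whereas the brighter Dkc1 probe sets 1438015_at and 1438016_at changed by -0.26 and -0.46 without passing. Control replicates 2 and 3 were the highest arrays outside the double knockdown. The call was lost in 9 of 21 alternative settings. These were no filter on dim probe sets (limma adjusted p = 0.189), only the 6 arrays compared (0.144), the replicate number as a block (0.053), and the fits without control replicate 2, Dcp1a siRNA replicate 1 or 2, or any 1 double-knockdown array (0.0501 to 0.0918).

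Pum3 encodes a pumilio-family RNA-binding protein of the nucleolus. Its dimmer probe set, 1434173_s_at, read 7.78, 8.66 and 7.77 in the double knockdown, 3.0, 2.81 and 2.70 with Dcp1a siRNA, 2.91, 3.05 and 3.0 with Dcp2 siRNA, and 2.74, 2.91 and 6.71 with control siRNA. Control replicate 3 alone among the 9 other arrays exceeded 32 units. With both siRNAs it was at least 5.66-fold higher than with control siRNA (limma adjusted p = 0.0134). The call was lost in 4 of 20 alternative settings. It did not pass with no filter on dim probe sets or with only the 6 arrays compared (limma adjusted p = 0.119 for each). Nor did it pass without control replicate 2 or double-knockdown replicate 2 (limma adjusted p = 0.0648 and 0.0647). The brightest Pum3 probe set, 1426931_s_at, changed by 0.14 (limma adjusted p = 0.903). The Rrp1b probe set 1452119_at read 6.81, 7.10 and 6.69 in the double knockdown and 5.0, 4.76 and 4.53 with control siRNA, at least 3.65-fold higher (limma adjusted p = 0.000931), beside 0.26 for the brightest Rrp1b probe set (limma adjusted p = 0.644). Without the double-knockdown arrays neither 1434173_s_at nor 1452119_at would have passed the filter, so their rise is partly fixed by it. Which transcript forms each probe set reads was not tested.

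**Figure D3:**
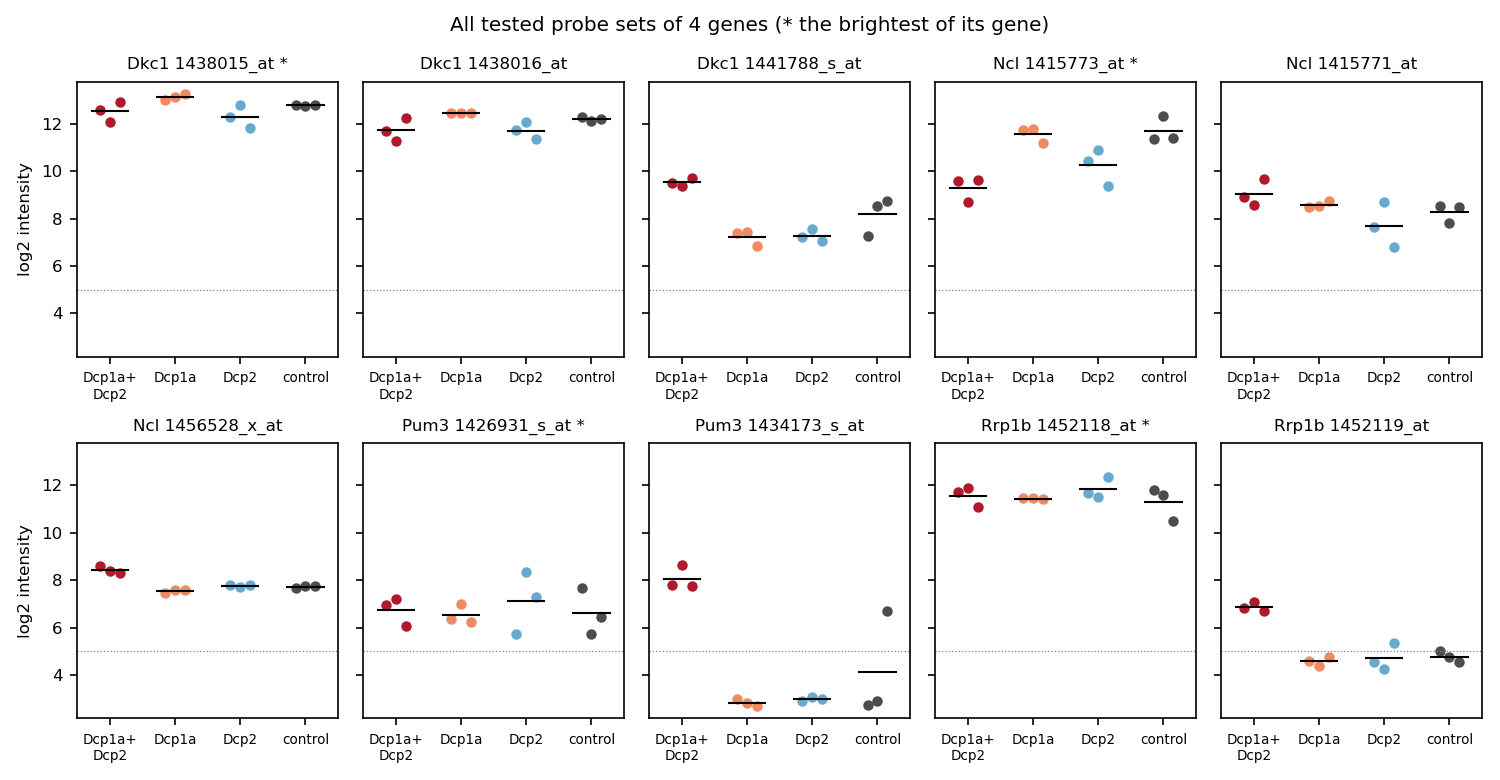
Log2 intensity (vertical axis) of all tested probe sets of Dkc1, Ncl, Pum3 and Rrp1b, 1 point per array and a bar at the group mean, with the dotted line at 32 units and a star on the brightest probe set. In each gene 1 dimmer probe set rose in the double knockdown while the brightest one fell (Ncl) or did not pass.

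The 5 genes that rose were among those with low readings in the single knockdowns. Over these 6 arrays, which do not enter the mean change against control, 9 of the 37 genes averaged log2 6 or less, and 5 of these were called higher in the double knockdown, or 55.6%, beside 17.2% of the 1228 tested genes in that range. The filter admitted 3 of the 9, and 63 of the 1228, through the double-knockdown arrays alone, so this share is partly set by the filter. The other 4 of the 9, Utp14a, Utp14b, Rrp1 and Rrp15, changed by -0.11 to 0.33 and did not pass. Above log2 6, 0 of 28 genes were called higher in the double knockdown against control, and Ncl was called lower among the 10 genes above log2 10. Of all tested genes, 8.11% were called higher from log2 6 to 8, 3.77% from 8 to 10 and 1.75% over 10. Over log2 10, 1.15% of all tested genes were called lower. At an unadjusted p under 0.05, 2 of the 28 members, Gnl3 and Rrp36, were higher and 7 were lower, namely Ncl, Nol9, Utp18, Npm1, Nop58, Nol4 and Nol8. Over all levels, 1171 of 6996 tested genes were higher and 794 lower at that p, and the share above log2 6 at that p was not counted.

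**Figure D4:**
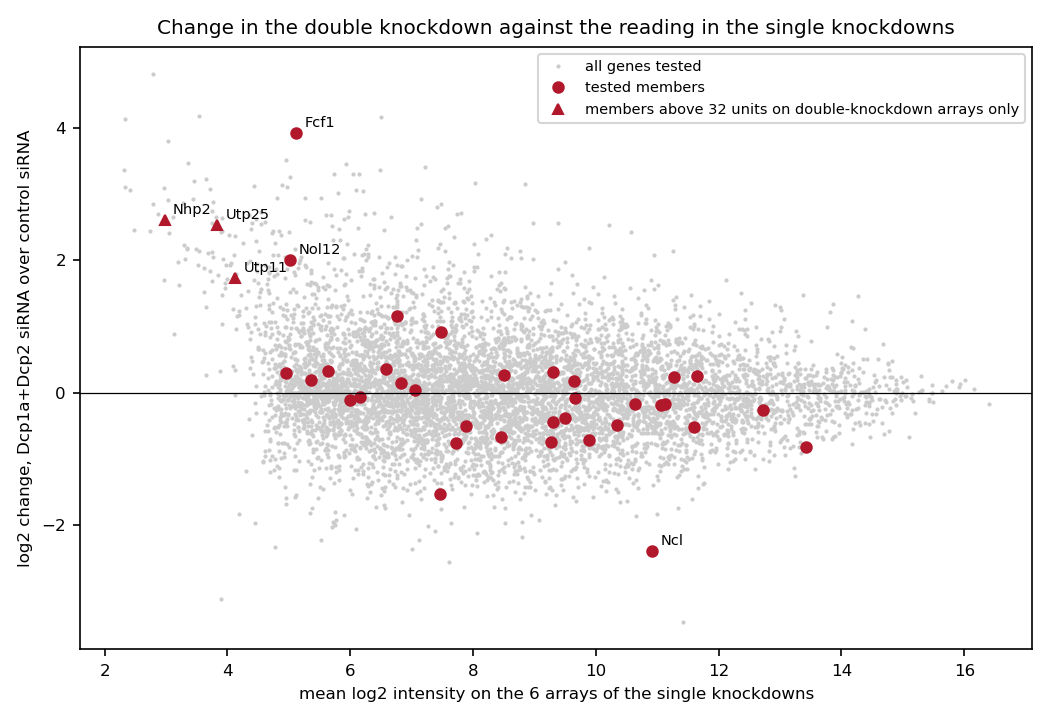
Log2 change of the double knockdown against control siRNA (vertical axis) against the mean log2 intensity on the 6 single-knockdown arrays (horizontal axis) for the 37 genes (red) and all 6996 tested genes (grey). Fcf1, Nol12, Nhp2, Utp11 and Utp25 lie below log2 6 on the horizontal axis, and triangles mark the 3 that exceeded 32 units on double-knockdown arrays alone.

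Neither single knockdown moved these genes past the threshold. With Dcp1a siRNA against control, 0 of 37 passed, beside 0.0286% of all tested genes called in each direction. An unadjusted p under 0.05 was reached by 0 of 37, beside 343 of all 6996 tested genes. Leaving out Nhp2, Utp11, Utp25 and Utp14b, which read below 32 units in both groups, the log2 changes ran from -0.53 for Gnl3 to 0.51 for Fbl. With Dcp2 siRNA against control, 0 of 37 passed, beside 0.0% of all tested genes called higher and 0.0286% called lower. At an unadjusted p under 0.05, 2 genes were higher and 5 lower, beside 248 and 486 of all 6996 tested genes. The 2 were Nop10 at 0.56 and Utp14b, which was at least 1.16-fold higher and read below 32 units on every control array. Of the 5, Nhp2 read below 32 units on all 6 arrays and has no reliable order there. The other 4 were Ncl at -1.45, Nol9 at -1.40, Nop58 at -0.95 and Nol4 at -0.59, each with a limma adjusted p of 0.425. Ncl, Nol9, Nop58 and Nol4 had no overlap between the Dcp2 siRNA and control arrays. Neither had Gar1, at -0.24, nor Utp14b, which was higher with Dcp2 siRNA. The share of all tested genes without overlap was not counted, so this is no sign of a fall of the set. The 3 control arrays were also used in the other comparisons with control.

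The Dcp2 result depended on the arrays that stood apart. Without control replicate 1 and Dcp2 siRNA replicate 2, 8 of the 37 genes were called in the Dcp2 knockdown against control, 2 higher and 6 lower, where 9.96% of all tested genes were called higher and 11.6% lower. The 2 were Nop10 and Rrp36, and the 6 were Ncl, Nhp2, Nol4, Utp11, Utp15 and Utp18. Nhp2 and Utp11 read below 32 units on every Dcp2 siRNA and control array, so their direction is not reliable and 4 lower calls remain without them. Leaving out any 1 array gave 0. The median log2 change of the 37 genes with all arrays was -0.23, against -0.08 over all tested genes. It was -0.15 with values under 32 units set to 32, and -0.06 after each array was centred on its median.

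The comparisons of the double knockdown with each single knockdown ask whether the second siRNA added a change. Against Dcp1a siRNA, 6 of 37 genes were called higher and 1 lower, beside 8.18% and 3.3% of all tested genes. The 6 were Fcf1, Nhp2, Nol12, Utp25, Utp11 and Gnl3, and the 1 was Ncl. At an unadjusted p under 0.05, 6 were higher and 10 lower, beside 956 and 1228 of all 6996 tested genes. Here and against Dcp2 siRNA, Nhp2, Utp11 and Utp25 were again tested through the double-knockdown arrays alone, so the filter partly fixed the counts of higher genes. Gnl3 rose by 1.68 ± 0.38 (limma adjusted p = 0.0158), which did not pass without any 1 of the Dcp1a siRNA arrays or double-knockdown replicate 2 (limma adjusted p of 0.0513 to 0.0635). Nor did this rise pass with no filter on dim probe sets (limma adjusted p = 0.108). Ncl fell by 2.28 ± 0.42 (limma adjusted p = 0.00495). Nop58, the box C/D core protein, read 9.47, 8.95 and 10.05 in the double knockdown against 10.51, 10.38 and 10.66 with Dcp1a siRNA. Its change of -1.03 ± 0.31 did not pass (limma adjusted p = 0.0506).

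Without double-knockdown replicate 3, 13 genes were called against Dcp1a siRNA, 6 higher and 7 lower, where 8.72% of all tested genes were called higher and 11.0% lower. The 7 were Ncl, Nip7, Nol4, Nol8, Nol9, Nop58 and Utp18. Without control replicate 1 and Dcp2 siRNA replicate 2, which enter this comparison through the shared estimate of the spread, 13 were called as well, 6 higher and 7 lower, beside 11.3% and 11.2% of all tested genes.

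Against Dcp2 siRNA, the same 6 genes were called higher and 0 lower, beside 5.87% and 0.272% of all tested genes. At an unadjusted p under 0.05, 6 of 37 were higher and 1 was lower, beside 842 and 229 of all 6996 tested genes. The 1 was Ncl at -0.95 (limma adjusted p = 0.289). Gnl3 rose by 1.75 ± 0.38 (limma adjusted p = 0.0186), which did not pass without Dcp2 siRNA replicate 3 or double-knockdown replicate 2 or 3 (limma adjusted p of 0.0629 to 0.075). Nor did this rise pass with no filter on dim probe sets (limma adjusted p = 0.132). Fcf1 rose by 4.22 ± 0.28 (limma adjusted p = 1.08e-05). All comparisons with the double knockdown share its 3 arrays, so their counts are not independent of each other.

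The departure from additivity compares the double knockdown with what the 2 single changes add up to. It was positive and past the threshold in 6 of 37 genes and negative in 0, beside 3.7% and 0.0572% of all tested genes. At an unadjusted p under 0.05, 6 of 37 were positive and 0 negative, beside 638 and 118 of all 6996 tested genes. Nhp2, Utp11 and Utp25 are among the 6, and since they were tested through the double-knockdown arrays alone, the filter partly fixed this count. Fcf1 departed by 4.39 ± 0.40 on the log2 scale (limma adjusted p = 0.000199). Its single-knockdown changes were -0.16 for Dcp1a siRNA and -0.30 for Dcp2 siRNA, beside a standard error of 0.28. Nhp2 departed by 4.27, Nol12 by 2.78, Utp25 by 2.64, Gnl3 by 2.29 and Utp11 by 1.72. Gnl3 did not pass without any 1 of the Dcp1a siRNA or double-knockdown arrays or Dcp2 siRNA replicate 2 or 3 (limma adjusted p of 0.0701 to 0.105), nor Utp11 without Dcp1a siRNA replicate 1 (limma adjusted p = 0.0504). With no filter on dim probe sets, Gnl3, Utp11, Nol12 and Utp25 did not pass (limma adjusted p = 0.252, 0.0832, 0.0602 and 0.0523). The readings of Nhp2, Utp11 and Utp25 outside the double knockdown are below 32 units and have no reliable order, so the size of their departure depends on the floor. With values under 32 units set to 32 it was 1.42 for Nhp2, 1.42 for Utp25 and 0.85 for Utp11. Ncl departed by -0.83 ± 0.59 and did not pass (limma adjusted p = 0.782).

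Promoters are shown for the genes called in any comparison, which changed in the same eggs. RefSeq start sites (build GRCm38.p6) gave a promoter for 39 of the 51 genes and for 5 of the 7 called ones. Each stretch runs 5′ to 3′ on the gene's strand from 120 bases before the start to 20 bases after it. Capitals mark CCGGAA or its reverse complement TTCCGG, the core of sites bound by ETS-family factors. Nhp2 lies at chr11:51619653-51619792 (plus strand), Nol12 at chr15:78934813-78934952 (plus strand), Utp25 at chr1:193130251-193130390 (minus strand), Gnl3 at chr14:31019112-31019251 (minus strand) and Ncl at chr1:86359436-86359575 (minus strand).
Nhp2: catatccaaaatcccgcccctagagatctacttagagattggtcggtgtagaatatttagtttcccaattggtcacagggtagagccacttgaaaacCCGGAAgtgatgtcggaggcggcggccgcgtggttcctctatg
Nol12: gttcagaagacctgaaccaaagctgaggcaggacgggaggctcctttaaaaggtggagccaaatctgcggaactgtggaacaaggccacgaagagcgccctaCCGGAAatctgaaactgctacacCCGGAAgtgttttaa
Utp25: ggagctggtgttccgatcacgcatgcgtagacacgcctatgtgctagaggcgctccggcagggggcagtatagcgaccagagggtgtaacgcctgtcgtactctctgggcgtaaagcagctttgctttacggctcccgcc
Gnl3: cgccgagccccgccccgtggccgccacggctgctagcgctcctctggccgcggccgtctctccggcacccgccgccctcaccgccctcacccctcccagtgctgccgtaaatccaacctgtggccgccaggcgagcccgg
Ncl: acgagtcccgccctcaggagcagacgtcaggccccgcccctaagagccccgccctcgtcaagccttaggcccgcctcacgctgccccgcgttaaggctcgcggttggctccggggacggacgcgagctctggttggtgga
The motif appears 1 time in the Nhp2 stretch and 2 times in that of Nol12, and in none of the other 3. Over the full windows of 250 bases before to 50 bases after a start, CCGGAA or TTCCGG was found in 20 of the 39 genes, or 51.3%, beside 33.6% of 5762 tested genes with a promoter and 16.7% of all 27025 genes of the RefSeq table. CACGTG, the E-box read the same on both strands, was found in 9 of the 39, or 23.1%, beside 12.2% and 8.09%. Utp25 has 3 listed starts, and both motifs were found in its full windows. Utp25, Utp18, Utp4, Utp14b, Utp20, Nol11, Nop2, Pes1 and Rrp7a held CACGTG. Of these, Nol11, Nop2 and Rrp7a were not tested on the arrays, so the 39 genes and the tested genes are not like sets. These matches are letters in a window and were not tested against the changes.

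A wider list of ribosome biogenesis genes, which holds none of the 51, had 105 genes on the array and 78 tested. In the double knockdown against control 9 rose and 3 fell, beside 6.78% and 1.64% of all tested genes, with a median log2 change of -0.02. The filter can admit a gene through the double-knockdown arrays alone, as it did Nhp2, Utp11 and Utp25. How many of the 9 entered that way was not counted, so the count is no support for a rise of the list. Ruvbl2, an ATPase of box C/D and box H/ACA particle assembly, averaged 5.81 in the double knockdown and 3.75 with control siRNA and was at least 1.76-fold higher (limma adjusted p = 5.55e-05). Emg1, a methyltransferase of small subunit rRNA, averaged 7.15 in the double knockdown and 4.5 with control siRNA and was at least 4.38-fold higher (limma adjusted p = 0.000112). Aatf and Nat10, both of the small subunit processome group, were at least 1.97-fold and 1.93-fold higher (limma adjusted p = 0.00485 and 0.0167).

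On the large subunit side of the wider list 4 rose and 2 fell of 29 tested. Zfp593 rose by 1.43 ± 0.20 (limma adjusted p = 0.0019) and Las1l, part of an rRNA-cleaving complex, by 0.69 ± 0.16 (limma adjusted p = 0.0209). Gtpbp4, a GTPase of early large subunit particles, averaged 10.36 in the double knockdown and 12.11 with control siRNA and fell by 1.75 ± 0.37 (limma adjusted p = 0.0153). Rpf2, which brings in the small rRNA of the large subunit, fell by 1.12 ± 0.23 (limma adjusted p = 0.0142). Against Dcp1a siRNA 14 of the 78 rose and 4 fell, beside 8.18% and 3.3% of all tested genes. Here and against Dcp2 siRNA the filter may likewise have fixed part of the counts of higher genes. Against Dcp2 siRNA 5 rose and 0 fell, beside 5.87% and 0.272%. At an unadjusted p under 0.05, 15 of the 78 were higher and 4 lower against Dcp2 siRNA, beside 842 and 229 of all 6996 tested genes. With either single siRNA against control 0 of the 78 passed. An unadjusted p under 0.05 was reached by 6 with Dcp1a siRNA and 12 with Dcp2 siRNA, beside 343 and 734 of all 6996 tested genes.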

How the data were processed

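Messenger RNA of 12 egg pools in 4 groups of 3 was measured on Affymetrix arrays. The authors deposited linear intensity values per probe set; the submitters' processing notes name GCRMA, a method that removes sequence-dependent background and normalizes arrays to each other, without its version. The table's minimum was 4.9 units, and 55.6% of values were at or under 5 units. The number of arrays limits the precision.

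Values were taken to log2. Probe sets above log2 5 on at least 3 arrays were tested, 11593 of 45101 with 64 controls left out. Genes were named from the platform annotation where a probe set had 1 symbol, and all 51 symbols equal those of RefSeq GRCm38.p6. limma 3.58.1 in R 4.3.3 (lmFit, eBayes without trend, 8 residual and 2.97 prior degrees of freedom) was fitted to group means over all 12 arrays. Two-sided p-values were adjusted by Benjamini-Hochberg over all tested probe sets, with a threshold of 0.05. Where the dimmer group's mean or median was at or under log2 5, a fold is a bound against 32 units, which allows for the floor and not for replicate spread. The fit was tested on simulated data, with 100 probe sets changed 2-fold and 100 changed 4-fold in the double knockdown. Against control, 31 of the 2-fold and 81 of the 4-fold changes were called, with 9 false calls. A change that did not pass is therefore not shown to be absent.

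The members, the wider list and the alternatives were chosen with earlier results of these data known. The naming rule took the members called in any of the 6 comparisons, the 3 brightest members, further called probe sets, and the first 8 called genes of the wider list by adjusted p, while Nol9, Nop58, Rrp36 and the genes listed by unadjusted p were named after their values were seen. Alternatives changed the filter, the floor, the normalization, the variance model, the arrays used and the probe set.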

Additional observations from a re-analysis of the deposited data

Results flagged for a closer look

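The effect of both siRNAs departed from the sum of the single effects, by limma's test of the difference itself, in 10 of the 54 tested probe sets of these genes, all upward. The share of all tested probe sets was not counted. By brightest probe sets, 6 of 37 of these genes departed upward and 0 downward, beside 3.7% and 0.0572% of all tested genes. Nhp2, Utp11, Utp25 and the dimmer Pum3 and Rrp1b probe sets passed the filter only through the double-knockdown arrays, which partly fixed the counts of 10 and 6. The departures on the log2 scale were 4.39 for Fcf1, 4.27 for Nhp2, 2.78 for Nol12, 2.64 for Utp25, 2.29 for Gnl3 and 1.72 for Utp11 through their brightest probe sets. Nhp2, Utp25 and Utp11 read below 32 units outside the double knockdown, and with values under 32 units set to 32 their departures were 1.42, 1.42 and 0.85. Through dimmer probe sets they were 6.37 for Pum3, 3.23 for Dkc1, 2.35 for Rrp1b and 0.85 for Ncl. With the same floor the departure was 3.64 for Pum3 and 1.76 for Rrp1b. The Pum3 value ranged from 3.64 to 7.09 over all alternative settings and rests in part on control replicate 3, which read 6.71 where the other control arrays read 2.74 and 2.91. The Ncl departure did not pass in 17 of 20 alternative settings, the Gnl3 departure in 11.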

How the results depend on the processing

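No called change of the named members turned its direction under the alternatives run, and changes that were not called were not followed. Fcf1 kept its call in the double knockdown against control in all 21 settings, with log2 changes of 3.70 to 4.17 and a largest limma adjusted p of 0.00834. With dim probe sets required above log2 5 on at least 6 arrays, Nhp2, Utp11 and Utp25 were no longer tested, and 3 genes were called in the double knockdown against control, 4 against Dcp1a siRNA, 3 against Dcp2 siRNA and 2 in the departure from additivity. With no filter 2 genes departed from additivity, Fcf1 and Nhp2. Counting a gene where any probe set was called gave 10 against Dcp2 siRNA and 10 in the departure from additivity. Some of these were tested through the double-knockdown arrays alone, and a gene with several probe sets has several chances to be called. The share of all tested genes was not counted for this rule or for the changed filters. These counts therefore show no trait of the set. Without control replicate 1 and Dcp2 siRNA replicate 2, 8 genes were called in the Dcp2 knockdown against control and 13 in the double knockdown against Dcp1a siRNA. Leaving out each array in turn gave 6 to 7 genes in the double knockdown against control, 0 in each single knockdown, 6 to 13 against Dcp1a siRNA, 5 to 6 against Dcp2 siRNA and 4 to 6 in the departure from additivity. Same-numbered arrays of different groups deviated together at a correlation over 0.1 in 9 of 18 pairs (range -0.685 to 0.394, median 0.0853). Arrays with different numbers did so in 14 of 36 pairs (range -0.506 to 0.722, median 0.0219). The ranges overlap, so this check cannot decide whether the numbers pair the arrays. With the replicate number as a block, 6 genes were called in the double knockdown against control, 0 in each single knockdown, 7 against Dcp1a siRNA, 6 against Dcp2 siRNA and 5 in the departure from additivity. The replicate block lost Gnl3 in the departure from additivity (limma adjusted p = 0.0857), which was lost in 11 of 20 settings, the dimmer Dkc1 probe set against control (0.053) and the dimmer Ncl probe set against Dcp2 siRNA (0.055) and in the departure from additivity (0.118). With only the 6 arrays compared, Nhp2 and Nol12 missed the threshold against control (limma adjusted p = 0.0572 and 0.0527). The cause of these losses was not tested. Over the called probe sets, 30 of 298 results with an alternative setting and 40 of 533 with 1 or 2 arrays left out no longer passed. Over all tested probe sets, the median of the Dcp2 knockdown against control was -0.11 as deposited and 0.07 after median centring.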
